A study of Mus musculus with 8 samples.

Results

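The 37 genes described here are interferon response genes, chosen by name from the genes known to be switched on by interferon and grouped by role. The choice was made with earlier results of these data known. Shares and medians set beside those of all genes tested are therefore not independent of the choice. They comprise 4 transcription factors, 4 sensors and activators, 2 genes of the ISG15 system, 15 antiviral effectors, 6 GTPases, 2 genes of the p200 family, 3 antigen processing genes and 1 chemokine. Where several probe sets read a gene, the one with the highest mean over the 8 arrays was taken. Of the 37, 35 had a probe set among the 18193 genes named on the array, and 31 lay above the filter on low values, out of 13647 genes tested. Isg15, the ubiquitin-like modifier, and Ifi44 had no probe set that carries their symbol alone, so their expression was not analysed here. Both had a promoter window and enter the promoter search below, where Isg15 held an ISRE match and Ifi44 did not. Irf7, Dhx58, Oasl2 and Mx1 lay below the filter, which was set at the 25th percentile of the gene means, and have values but no test.

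Interferons are signalling proteins released by cells that sense viral nucleic acid. They bind cell-surface receptors whose Janus kinases phosphorylate STAT proteins. A complex that includes STAT2 and IRF9 binds the interferon-stimulated response element (ISRE), and interferon gamma acts through the gamma-activated site (GAS). The genes switched on block viral entry and translation, degrade viral RNA, cut and carry peptides for antigen presentation, and feed back on the pathway. Fibroblasts both make and answer interferon, and macrophages and other leukocytes do so too.

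The cells were fibroblasts isolated from mouse embryos at E14.5, on the C57BL6/J strain, and kept in normoxia or in hypoxia. Wild-type cells (Hif-p4h-1+/+) were compared with cells of a Hif-p4h-1-/- line. Hif-p4h-1 is the product of Egln2, a prolyl hydroxylase that marks the alpha subunits of hypoxia-inducible factor for degradation while oxygen is present. Each of the 4 groups (wild type or knockout, normoxia or hypoxia) had 2 arrays, 1 in a first set and 1 in a set that the titles mark as the second, called replicates 1 and 2. Not given in the sources used here are the oxygen level, the length of exposure, the construction of the knockout allele and whether a group's arrays came from separate cultures or embryos. The p-values thus reflect only how far these arrays spread, and that spread may be technical. No interferon or virus is named in the labels, so the values describe cells with no labelled stimulus of the pathway.

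Egln2, the targeted gene, read 8.84 and 9.07 in wild-type normoxia, 8.0 and 8.34 in knockout normoxia, 8.95 and 9.13 in wild-type hypoxia, and 8.66 and 8.85 in knockout hypoxia (log2 RMA values, first and second set). The knockout arrays were below the wild-type arrays of the same set in both oxygen conditions, and transcript was still read in all of them. In normoxia the knockout was lower by a log2 change of -0.78 ± 0.089 (SE; adjusted p = 0.0489, limma), and this call was lost whichever array was left out, with adjusted p from 0.104 to 0.539. The place of the probe set relative to the deleted sequence was not stated, so it checks the labels only in part. All 12 fibroblast markers lay above the filter, as did 18 of 20 macrophage and leukocyte markers, 4 of 8 endothelial, 6 of 7 epithelial and 0 of 4 erythroid markers. In wild-type hypoxia, 1 fibroblast marker was called higher and none of the endothelial or epithelial markers was called. The share called over all genes tested was 16.4% there. A log2 value says nothing about the amount of one gene relative to another, because probe sets differ in their response.

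The promoters of the genes were searched for the 3 elements that bear on interferon and on oxygen, in RefSeq windows of assembly GRCm38.p6 running from 250 bases before to 50 bases after each start. Of the 37 genes, 29 had a window, 34 windows in all. Usp18, Ifi204, Dhx58, Zbp1, Rtp4, Parp14, Mx1 and Iigp1 had none in that table. The ISRE was spelled as GAAA, then 2 bases of any kind, then GAAA again (TTTC and TTTC on the other strand), and was found in 16 of the 29 genes (55.2%), against 3.43% of the 32817 windows of all genes. The GAS element, spelled TTCNNNGAA on both strands, was found in 9 of 29 (31%) against 8.29% of all windows. The hypoxia response core, spelled only as ACGTG, or CACGT, was found in 3 of 29 (10.3%) against 19.6%. Other spellings of that core were not searched. A match describes these letters in these windows, and shares of genes and of windows are not the same measure since some genes have more than 1 window. The genes were chosen as switched on by interferon, which acts through the ISRE and GAS. Their ISRE and GAS shares are therefore tied to the choice and are no independent result. Among the GTPases, Gbp2, Gbp3, Igtp and Irgm1 held an ISRE match, and Irgm1, with 2 matches, was called in no comparison of genotype or oxygen. The following stretches carry the ISRE of the 3 GTPase genes called lower in hypoxia (Gbp2, Gbp3 and Igtp). Shown too are those of an antiviral gene with a wide range between arrays (Ifit1) and of a p200 gene whose values hardly moved (Ifi203). They are written 5′ to 3′ on the strand of the gene, and capitals mark the matches, which overlap in Gbp3.
Gbp2 (chr3:142620599-142620618, plus strand): tttagTTTCACTTTCactgt
Gbp3 (chr3:142559994-142560019, plus strand): cacagTTTCAGTTTCTATTTCccaga
Igtp (chr11:58199517-58199536, plus strand): gaactGAAACTGAAAgctgt
Ifit1 (chr19:34640780-34640818, plus strand): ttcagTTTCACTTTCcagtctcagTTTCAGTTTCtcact
Ifi203 (chr1:173942513-173942532, minus strand): ctgggGAAATCGAAAgctat
Among the tested genes, the 15 with an ISRE match had a median log2 change of -0.51 in wild-type hypoxia, with 2 called lower. The 10 with a window and no match had -0.24, with 4 called lower, where 8.85% of all genes tested were called lower. The difference between these subsets was not tested.

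In wild-type cells, most of these genes read lower in hypoxia than in normoxia, while Ifi204 rose. Of the 31 tested, 8 were called lower (Usp18, Parp14, Tap1, Xaf1, Gbp3, Ifitm3, Trim25 and Ifi35) and 1 higher (Ifi204). That is 9 called, where 16.4% of all genes tested were called, 8.85% lower and 7.54% higher. Ifi204 passed the filter on low values only through its hypoxia arrays and Usp18 only through wild-type normoxia, so both had to differ. Both also enter the counts over both genotypes below. The median log2 change of the 31 was -0.45, with -0.46 within the first set and -0.24 within the second, against -0.01 over all genes tested, and 27 of the 31 values were below 0. Within both sets, 23 genes read lower and 2 read higher. Leaving out wild-type normoxia replicate 1 reduced the 9 calls to 2, Ifi204 and Ifitm3, and the median to -0.22. Leaving out wild-type hypoxia replicate 1 reduced them to 1, Ifi204, with a median of -0.39.

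In knockout cells the same comparison gave 3 calls, Ifi204 and Ifit2 higher and Tap1 lower, where 10.1% of all genes tested were called, 4.98% higher and 5.13% lower. The median of the 31 was 0.00, with 15 values below 0, and lay between -0.17 and 0.09 when 1 knockout array was left out. The count rested on single arrays: it was 1 without knockout normoxia replicate 1 or knockout hypoxia replicate 1, and 0 without the second-set array of either group. In the fit of all arrays, 10 of the 31 genes and 26.4% of all genes had an unadjusted p under 0.05. Over both genotypes, 12 genes were called, 2 higher (Ifi204 and Ifit2) and 10 lower (the 8 of wild type with Gbp2 and Igtp), where 28.7% of all genes were called, 13.6% higher and 15.2% lower. The count was 19 without wild-type normoxia replicate 2. The median of the 31 was -0.25, and -0.11 without wild-type normoxia replicate 1. The tests of genotype and oxygen therefore placed 12 genes past the threshold in at least 1 comparison and 19 in none.

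**Figure D1:**
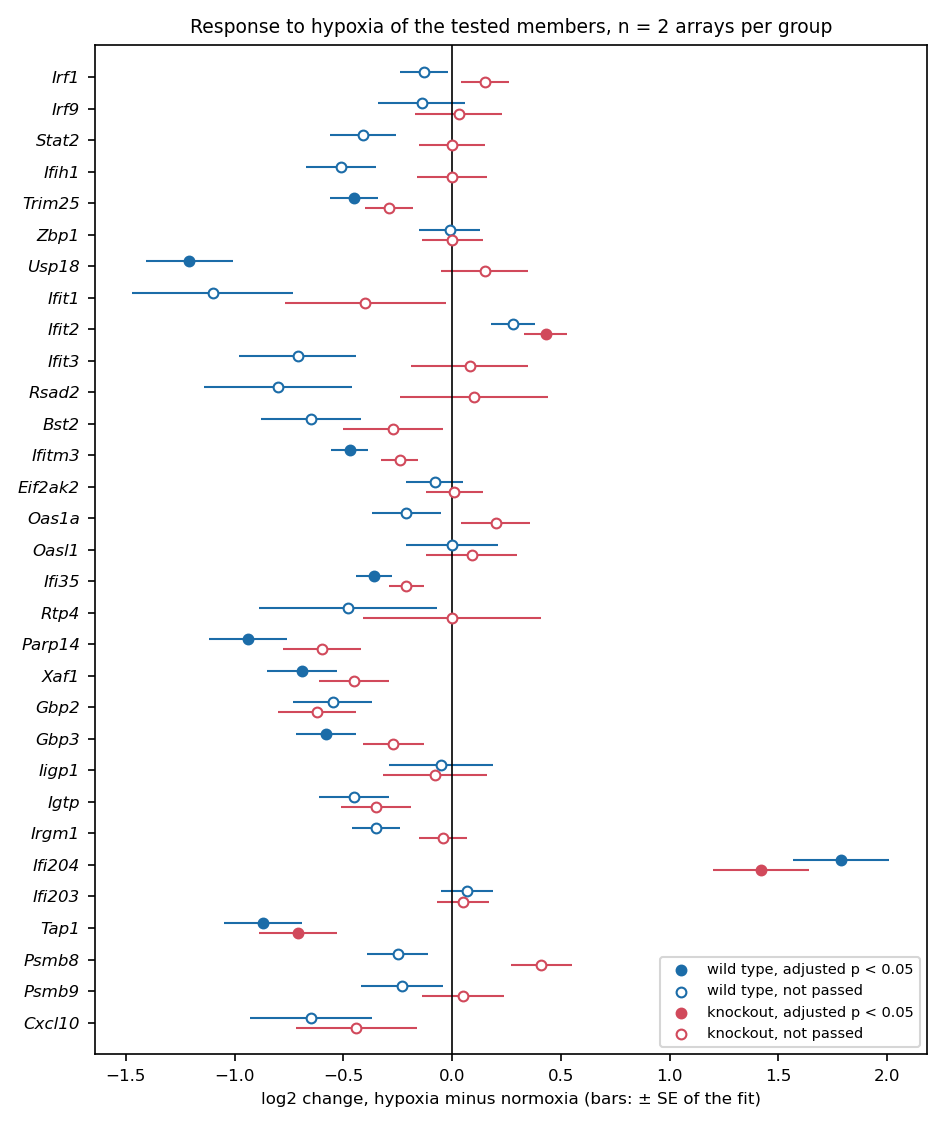
Log2 change from normoxia to hypoxia for the 31 tested genes, in wild type (blue) and knockout (red), with bars of 1 standard error of the fit and filled points where the adjusted p was under 0.05. Ifi204 lies far to the right in both genotypes, and Usp18 lies at -1.21 in wild type and 0.15 in knockout.

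The groups of genes differed in their medians, which were not tested against each other. Their counts stand beside 8.85% of all genes called lower in wild-type hypoxia. In knockout hypoxia 5.13% of all genes were called lower and 4.98% higher. The 13 antiviral effectors had a median of -0.48 in wild-type hypoxia with 4 called lower, and 0.00 in knockout hypoxia with 1 called higher. The 5 tested GTPases had -0.45 with 1 called lower and -0.27 with none called. The 3 antigen processing genes had -0.25 and 0.05, each with 1 called lower. Of the 2 p200 genes, Ifi204 stood at 1.79 in wild type and 1.42 in the knockout, and Ifi203 at 0.07 and 0.05. The rise in this group is that of Ifi204 alone, which passed the filter only through its hypoxia values, as given below.

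Ifi204 encodes p204, a nuclear DNA-binding protein of the p200 family that takes part in sensing DNA and in differentiation. Its log2 value was 4.13 and 4.13 in wild-type normoxia and 5.56 and 6.29 in wild-type hypoxia. In the knockout it was 3.84 and 3.71 in normoxia and 4.97 and 5.42 in hypoxia. All 4 hypoxia arrays lay above all 4 normoxia arrays. The rise was 1.79 ± 0.22 (SE) on the log2 scale in wild type, 3.47-fold (adjusted p = 0.0025, limma), and 1.42 ± 0.22 in the knockout, 2.68-fold (adjusted p = 0.00919). Its normoxia means, 4.13 in wild type and 3.77 in the knockout, lie below the filter of 4.17, so Ifi204 was tested only because its hypoxia values are high. A gene admitted in this way had to differ, and its fold rests on a baseline at the dim end of the array. The wild-type call held whichever of the 8 arrays was left out, with changes from 1.48 to 2.11. The knockout call was lost without knockout normoxia replicate 2 (1.16, adjusted p = 0.0863) and without knockout hypoxia replicate 2 (1.29, adjusted p = 0.106). The knockout read lower than wild type of the same set in each oxygen condition, by -0.54 ± 0.15 over both, which did not pass (adjusted p = 0.285).

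Ifi203, the other p200 gene tested, read between 6.70 and 6.86 over the 8 arrays and was called in no comparison. Mndal, a further p200 gene that is not among the 37, read 6.41 and 6.91 in wild-type normoxia and 6.91 and 7.32 in wild-type hypoxia. In the knockout it read 6.05 and 6.53 in normoxia and 6.63 and 6.60 in hypoxia. Each hypoxia array lay above the normoxia array of its genotype and set, and Mndal rose by 0.39 ± 0.11 over both genotypes (adjusted p = 0.0299). Ifi202b and Aim2, which senses cytosolic DNA, lay below the filter. The p200 genes are close copies of one another, so a probe set may read more than 1 of them.

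Usp18 removes ISG15 from proteins and shuts down signalling at the type I interferon receptor. It read 5.44 and 4.50 in wild-type normoxia, and 4.05 and 3.48 in wild-type hypoxia. In the knockout it read 4.03 and 3.77 in normoxia and 4.15 and 3.95 in hypoxia. The 2 wild-type normoxia arrays lay above the other 6. Usp18 fell by 1.21 ± 0.20 on the log2 scale in wild-type hypoxia (adjusted p = 0.00732) and changed by 0.15 ± 0.20 in knockout hypoxia (adjusted p = 0.693). The wild-type call was lost without wild-type normoxia replicate 1 (-0.91, adjusted p = 0.0655) and without wild-type hypoxia replicate 1 (-1.26, adjusted p = 0.0559). Over both genotypes it fell by 0.53 ± 0.14 (adjusted p = 0.024), and 3 of the 8 fits on 7 arrays kept that call, with changes from -0.68 to -0.38. The mean of Usp18 lies at the edge of the filter, at 4.17, and its group means of 3.76 in wild-type hypoxia, 3.90 in knockout normoxia and 4.05 in knockout hypoxia lie below it. Usp18 was thus tested only through wild-type normoxia, at 4.97, and had to differ there.

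Among the antigen processing genes, Tap1 changed most. Tap1 is a subunit of the transporter that carries peptides into the endoplasmic reticulum for loading onto MHC class I. Its log2 value was 7.33 and 6.98 in wild-type normoxia and 6.35 and 6.23 in wild-type hypoxia. In the knockout it was 7.72 and 6.96 in normoxia and 7.05 and 6.22 in hypoxia. The groups did not overlap in wild type, while in the knockout the first-set hypoxia array lay above the second-set normoxia array. In wild type Tap1 fell by 0.87 ± 0.18 (adjusted p = 0.0172), and in the knockout it fell by 0.71 ± 0.18 (adjusted p = 0.0461). The wild-type call was lost without wild-type normoxia replicate 1, wild-type hypoxia replicate 1 or wild-type normoxia replicate 2 (-0.97, -0.60 and -0.76). The knockout call held in 2 of the 8 fits on 7 arrays, with changes from -0.92 to -0.49. The 3 dimmer probe sets of Tap1, with means from 2.56 to 4.02, changed by -0.09 to 0.00 over both genotypes and were not called.

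The start of Tap1 is shown because it faces that of Psmb9, so that both genes share most of one window. The Tap1 window is chr17:34187306-34187605 on the plus strand and the Psmb9 window chr17:34187281-34187580 on the minus strand, and neither held a match to any of the 3 elements as spelled.
Tap1: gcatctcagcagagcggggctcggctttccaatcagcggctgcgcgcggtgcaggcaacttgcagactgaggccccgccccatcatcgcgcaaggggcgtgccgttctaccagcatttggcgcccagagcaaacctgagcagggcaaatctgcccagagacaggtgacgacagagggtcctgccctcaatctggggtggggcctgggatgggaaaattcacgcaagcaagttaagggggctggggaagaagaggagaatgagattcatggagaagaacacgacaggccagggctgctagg
Psmb9, an interferon-induced proteasome subunit read out from this shared region, ranged from 4.72 to 5.38 and changed by -0.23 ± 0.19 in wild-type hypoxia and 0.05 ± 0.19 in the knockout (adjusted p = 0.479 and 0.906). Psmb8, a further such subunit, read 7.61 and 7.0 in wild-type normoxia, 7.20 and 6.90 in wild-type hypoxia, 7.04 and 6.44 in knockout normoxia and 7.56 and 6.75 in knockout hypoxia. It read lower in hypoxia within both sets of wild type and higher within both sets of the knockout, and passed in neither (adjusted p = 0.26 and 0.0993). The 3 genes lie near each other on chromosome 17, and only Tap1 was called in a comparison of genotype or oxygen.

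**Figure D2:**
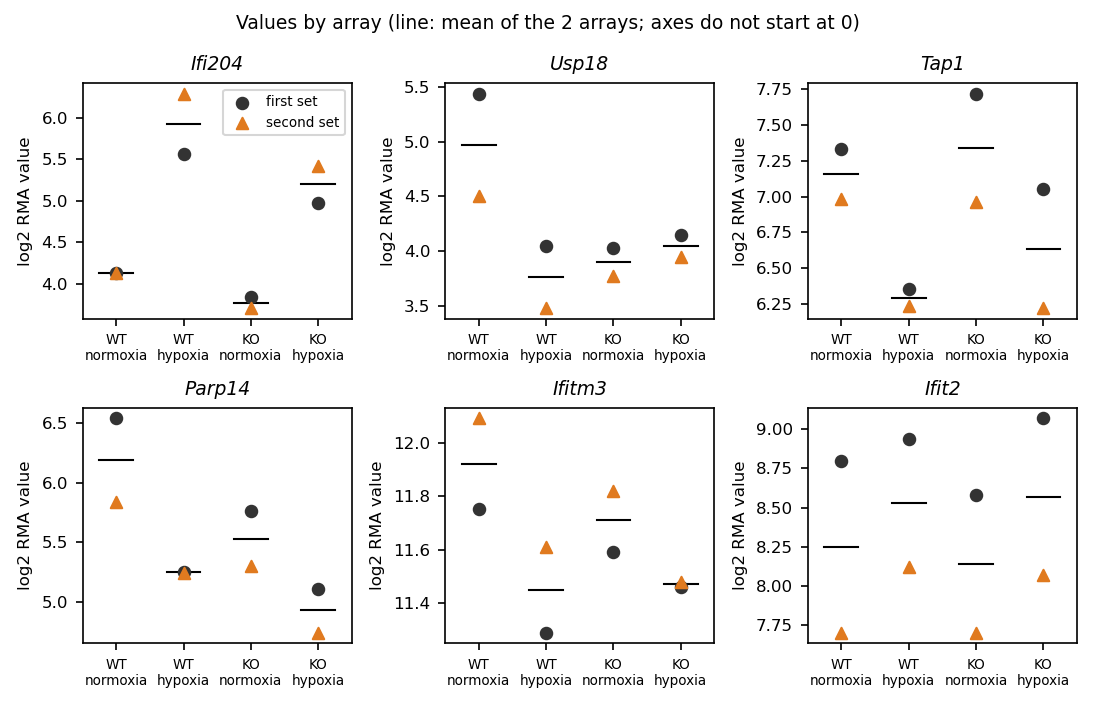
Log2 RMA value in each array for Ifi204, Usp18, Tap1, Parp14, Ifitm3 and Ifit2, with circles for the first set, triangles for the second and a line at the mean of the 2 arrays of a group. Axes do not start at 0. Ifi204 is higher in all 4 hypoxia arrays, and Ifit2 is split by set.

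Among the antiviral effectors, 4 fell in wild-type hypoxia. Parp14, an ADP-ribosyltransferase, read 6.54 and 5.84 in wild-type normoxia, 5.25 and 5.24 in wild-type hypoxia, 5.76 and 5.30 in knockout normoxia and 5.11 and 4.74 in knockout hypoxia. Hypoxia and normoxia did not overlap within either genotype. Parp14 fell by 0.94 ± 0.18 in wild type (adjusted p = 0.011) and changed by -0.60 in the knockout, which was not called. The call was lost without wild-type normoxia replicate 1 (-0.73, adjusted p = 0.0946) or wild-type hypoxia replicate 1 (-0.69, adjusted p = 0.0925). Its dimmer probe set, with a mean of 3.25, changed by -0.07.

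Ifitm3, a membrane protein that hinders the fusion of entering viruses, read 11.75 and 12.09 in wild-type normoxia and 11.29 and 11.61 in wild-type hypoxia. In the knockout it read 11.59 and 11.82 in normoxia and 11.46 and 11.48 in hypoxia. Each hypoxia array lay below every normoxia array of its genotype. It fell by 0.47 ± 0.085 in wild type (adjusted p = 0.0101), a call lost without wild-type hypoxia replicate 1 (-0.41, adjusted p = 0.0921) or wild-type normoxia replicate 2 (-0.40, adjusted p = 0.0804). Over both genotypes it fell by 0.35 ± 0.060 (adjusted p = 0.00397), a call kept whichever array was left out. Its window, chr7:141010695-141010994 on the minus strand, is shown because it holds 2 ISRE matches just after the start with a GAS match between them that overlaps the second. Capitals mark the 3 matches.
Ifitm3: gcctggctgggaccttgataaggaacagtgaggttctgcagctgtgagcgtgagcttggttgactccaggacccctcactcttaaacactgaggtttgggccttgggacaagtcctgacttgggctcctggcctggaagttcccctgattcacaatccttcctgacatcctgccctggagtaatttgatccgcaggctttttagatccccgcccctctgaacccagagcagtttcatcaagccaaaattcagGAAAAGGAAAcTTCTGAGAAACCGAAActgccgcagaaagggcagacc

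Xaf1, an interferon-induced factor that promotes cell death, read 8.03 and 6.93 in wild-type normoxia, 7.05 and 6.53 in wild-type hypoxia, 7.04 and 6.42 in knockout normoxia and 6.77 and 5.79 in knockout hypoxia. Within each set and genotype the hypoxia array was the lower, and the groups overlapped across sets. Xaf1 fell by 0.69 ± 0.16 in wild type (adjusted p = 0.0252), a call lost without wild-type normoxia replicate 1 or wild-type hypoxia replicate 1 (-0.49 and -0.50). Over both genotypes it fell by 0.57 ± 0.11 (adjusted p = 0.00778), also whichever array was left out, and its dimmer probe set, with a mean of 3.27, changed by -0.04 in wild type. Its window, chr11:72301379-72301678 on the plus strand, is given as that of a gene called lower with no match to the elements as spelled.
Xaf1: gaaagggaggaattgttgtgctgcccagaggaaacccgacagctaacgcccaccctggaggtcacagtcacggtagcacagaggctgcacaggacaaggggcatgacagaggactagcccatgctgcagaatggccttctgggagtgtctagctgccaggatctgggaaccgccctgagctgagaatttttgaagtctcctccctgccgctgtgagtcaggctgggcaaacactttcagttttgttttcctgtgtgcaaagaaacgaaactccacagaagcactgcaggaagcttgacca

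Ifi35, a cytoplasmic interferon-induced protein, read from 9.30 to 9.98 over the 8 arrays. With hypoxia Ifi35 fell by 0.36 ± 0.082 in wild type (adjusted p = 0.0237), and over both genotypes it fell by 0.28 ± 0.058. Trim25, the ubiquitin ligase that activates the RNA sensor RIG-I, ranged from 8.24 to 9.72 and fell by 0.45 ± 0.11 in wild type (adjusted p = 0.0305). Both wild-type calls were lost without wild-type normoxia replicate 1 (-0.33 for Ifi35, -0.42 for Trim25), wild-type hypoxia replicate 1 (-0.27 and -0.30) or wild-type normoxia replicate 2 (-0.38 and -0.48), and that of Trim25 also without either knockout normoxia array (-0.45). The further probe sets of both genes read the same way, from -0.41 to -0.35 in wild type, and 1 of Trim25 was called there (-0.40, adjusted p over all probe sets = 0.0402).

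Ifit2 went the other way. It belongs to the Ifit family, which binds viral RNA and slows translation, and lies beside Ifit1 and Ifit3 on chromosome 19. Its log2 value was 8.80 and 7.70 in wild-type normoxia, 8.94 and 8.12 in wild-type hypoxia, 8.58 and 7.70 in knockout normoxia and 9.07 and 8.07 in knockout hypoxia. The hypoxia array was the higher within every set and genotype, while the sets lay further apart than the oxygen conditions. Ifit2 rose by 0.43 ± 0.10 in the knockout (adjusted p = 0.0366) and by 0.35 ± 0.073 over both genotypes (adjusted p = 0.00834), and changed by 0.28 in wild type, which was not called. The knockout call was lost without any 1 of the 4 knockout arrays, with adjusted p from 0.144 to 0.242. Over both genotypes the call was kept whichever array was left out.

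Ifit1 and Ifit3 had log2 changes of -1.10 and -0.71 in wild-type hypoxia and -0.40 and 0.08 in the knockout, and neither was called. Ifit1 held 2 ISRE matches in its window and Ifit3 also 2, whereas neither of the 2 windows of Ifit2 held one, and the first held a GAS match, in capitals. The windows of Ifit2 are chr19:34550444-34550743 and chr19:34550838-34551137, both on the plus strand.
Ifit2, first window: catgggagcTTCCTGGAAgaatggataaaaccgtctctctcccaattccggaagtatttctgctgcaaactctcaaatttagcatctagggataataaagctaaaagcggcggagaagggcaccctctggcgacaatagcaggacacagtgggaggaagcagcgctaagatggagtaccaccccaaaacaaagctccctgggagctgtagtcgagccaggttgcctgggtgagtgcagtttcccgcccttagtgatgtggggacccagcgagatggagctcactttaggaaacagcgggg
Ifit2, second window: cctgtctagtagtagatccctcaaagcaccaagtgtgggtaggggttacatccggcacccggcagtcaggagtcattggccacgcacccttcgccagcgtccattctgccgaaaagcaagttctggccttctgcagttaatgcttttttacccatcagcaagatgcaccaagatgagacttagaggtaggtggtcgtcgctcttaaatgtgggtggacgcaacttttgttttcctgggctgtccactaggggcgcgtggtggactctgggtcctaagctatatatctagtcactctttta

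The GTPases act on the membranes around intracellular pathogens. Gbp2, a guanylate-binding protein, read 7.10 and 6.69 in wild-type normoxia, 6.74 and 5.94 in wild-type hypoxia, 7.88 and 6.67 in knockout normoxia and 7.17 and 6.14 in knockout hypoxia. It was lower in hypoxia within every set and genotype, with overlap across sets in the knockout and in wild type. Gbp2 fell by 0.59 ± 0.13 over both genotypes (adjusted p = 0.0116), a call lost without knockout normoxia replicate 1 or knockout hypoxia replicate 2 (-0.47 and -0.53). Its second probe set changed by -0.67 over both (adjusted p over all probe sets = 0.00857). The ISRE of its promoter lies in the stretch printed above.

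Gbp3, of the same family, read 6.20 and 5.19 in wild-type normoxia, 5.57 and 4.66 in wild-type hypoxia, 5.73 and 4.80 in knockout normoxia and 5.33 and 4.65 in knockout hypoxia. The hypoxia array was the lower in each set, and the sets lay further apart than the oxygen conditions. It fell by 0.58 ± 0.14 in wild type (adjusted p = 0.0284), a call lost without any 1 of the wild-type arrays or without knockout normoxia replicate 1, with changes from -0.67 to -0.50. Igtp, an immunity-related GTPase, read 7.37 and 6.52 in wild-type normoxia, 6.78 and 6.20 in wild-type hypoxia, 7.24 and 6.26 in knockout normoxia and 6.61 and 6.19 in knockout hypoxia. It was lower in hypoxia in each set, and its second-set knockout arrays differed by little. It fell by 0.40 ± 0.11 over both genotypes (adjusted p = 0.0274), a call lost without any 1 of the 4 first-set arrays, with changes from -0.36 to -0.31.

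The 19 tested genes that were called in no comparison of genotype or oxygen ranged as follows over the 8 arrays. Of the transcription factors, Irf1, an activator of interferon and antigen processing genes, ranged from 8.23 to 9.12. Irf9 and Stat2, the partners in the ISRE-binding complex, ranged from 6.36 to 7.33 and from 4.65 to 5.42. The cytosolic RNA sensor Ifih1 ranged from 6.44 to 8.16, and Zbp1, a sensor of Z-form nucleic acid, from 4.80 to 5.00. Ifit1 ranged from 3.31 to 6.33, Ifit3 from 5.16 to 7.10 and Rsad2 (viperin) from 5.20 to 6.96. These 3 were highest in wild-type normoxia replicate 1, as were 24 of the 31.

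Bst2 (tetherin), which holds budding virus at the cell surface, ranged from 7.04 to 8.93, and Eif2ak2, the kinase PKR, from 7.92 to 9.20. Oas1a, of the family that activates RNase L, ranged from 6.67 to 7.51 and Oasl1 from 4.75 to 5.51. The receptor chaperone Rtp4 ranged from 5.27 to 7.72. Of the GTPases, Iigp1 ranged from 4.08 to 5.05 and Irgm1 from 7.85 to 8.70. Ifi203, Psmb8 and Psmb9 are given above, and the chemokine Cxcl10 below. Of the genes below the filter, Irf7 read from 3.96 to 4.68, the RNA helicase Dhx58 from 3.11 to 3.91, Oasl2 from 3.12 to 4.63 and the dynamin-like GTPase Mx1 from 2.91 to 3.14.

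**Figure D3:**
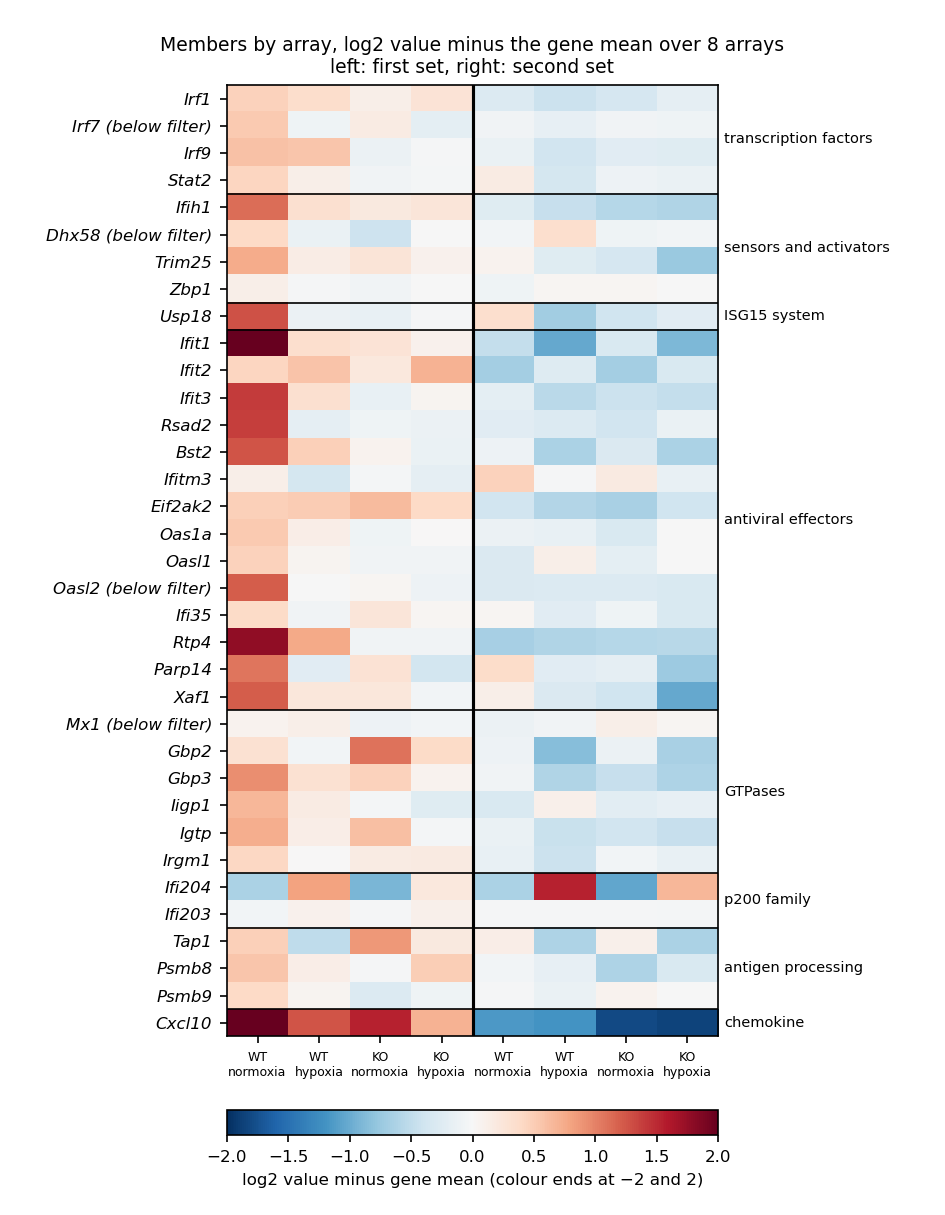
Log2 value minus the gene's mean over the 8 arrays, for the 35 genes with a probe set in rows by role and the arrays in columns, first set to the left of the line and second set to the right. Red is above and blue below the gene mean. The column of wild-type normoxia in the first set is the highest for 24 of the 31 tested genes, and Cxcl10 is split by set.

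Wild-type normoxia replicate 1 held the highest value of the 8 arrays for 24 of the 31 tested genes (77.4%), against 17.9% of all genes tested. The median of the 31 centred values was 0.55 in that array, 0.14 in wild-type hypoxia replicate 1 and 0.06 and 0.04 in the first-set knockout arrays. In the second set it was -0.12 in wild-type normoxia, -0.35 in wild-type hypoxia, -0.31 in knockout normoxia and -0.30 in knockout hypoxia. Antiviral effectors followed the same array, with 10 of 13 highest there. The second set was lower than the first for 21 of the 31 genes and higher for 1, Ifitm3, by the test of the set term, where 46.1% of all genes were called, 20.7% lower and 25.4% higher.

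Cxcl10, a chemokine that draws T cells, differed most between the sets. The first set read 9.11, 7.86, 8.15 and 7.31 and the second set 5.46, 5.41, 4.80 and 4.76, in the order wild-type normoxia, wild-type hypoxia, knockout normoxia and knockout hypoxia. All first-set arrays lay above all second-set arrays, and the second set was lower by a log2 change of -3.00 ± 0.20 (adjusted p = 2.1e-05). Its changes with oxygen, -0.65 in wild type and -0.44 in the knockout, were not called.

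Macrophage and leukocyte markers were read in these cultures, and most were also highest in wild-type normoxia replicate 1. Of their 18 tested markers, 13 were highest in wild-type normoxia replicate 1 and 5 in wild-type hypoxia replicate 1. Their mean log2 level per array was 7.73 and 6.24 in wild-type normoxia, 7.27 and 6.06 in wild-type hypoxia, 5.71 and 5.45 in knockout normoxia and 5.79 and 5.39 in knockout hypoxia. All 4 wild-type arrays lay above all 4 knockout arrays. Beyond the shared peak, the markers and the 31 interferon response genes parted in the first set. In wild-type hypoxia replicate 1 the median centred value was 1.21 for the markers and 0.14 for the 31. In the first-set knockout arrays it was -0.47 and -0.44 for the markers, against 0.06 and 0.04 for the 31. Itgam and Aif1 lay below the filter.

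Ptprc (CD45) read 6.82 and 5.28 in wild-type normoxia, 6.33 and 4.52 in wild-type hypoxia, 4.50 and 4.10 in knockout normoxia and 4.31 and 3.53 in knockout hypoxia. Csf1r, the macrophage growth factor receptor, read 9.84 and 8.16, 9.54 and 8.02, 8.04 and 7.32, and 7.96 and 6.78 in the same order. Cd68 ranged from 5.23 to 7.33, Adgre1 (F4/80) from 4.41 to 6.81 and lysozyme, Lyz2, from 7.33 to 10.16. In each of these genes the highest value was in a first-set wild-type array. Over both oxygen conditions the knockout was called lower for 7 of the 18 markers, where 0.256% of all genes tested were called. The median of the 18 was -1.22, against -0.23 for the 31 interferon response genes. Of the 12 fibroblast markers, 2 were called lower in that comparison, with a median of -0.14. With hypoxia in wild type, the median of the 18 macrophage and leukocyte markers was -0.39, beside -0.45 for the 31. Among the 18, 2 were called lower (Lyz2 and Msr1), where 8.85% of all genes tested were called lower. The part of these cells in the results was not tested, and in such bulk samples fewer cells of a type and less RNA per cell cannot be told apart. In wild-type hypoxia 4 of the 18 macrophage and leukocyte markers had changes above 0 and 14 below. In the knockout against wild type over both oxygen conditions, all 18 were below 0.

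**Figure D4:**
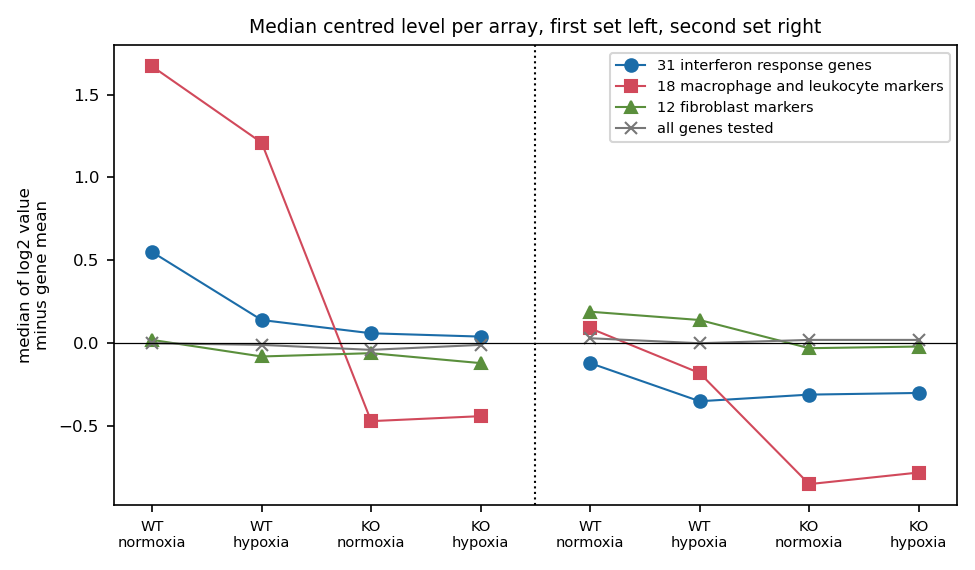
Median over each list of the log2 value minus the gene mean, per array, for the 31 tested interferon response genes, 18 macrophage and leukocyte markers, 12 fibroblast markers and all genes tested, first set left and second set right. The interferon response genes and the macrophage markers both peak in wild-type normoxia of the first set, at 0.55 and 1.67. They part in wild-type hypoxia of that set, at 0.14 and 1.21, and all genes tested stay near 0.

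Between genotypes, none of the 31 genes passed the limma test. In normoxia the median was -0.39, -0.53 within the first set and -0.19 within the second, with 28 of 31 values below 0 and 19 lower within both sets. Of all genes tested, 0.0366% were called, and at an unadjusted p under 0.05 there were 14 of the 31 genes and 6.70% of all genes. The smallest adjusted p was that of Usp18, whose log2 change was -1.07 ± 0.20 (adjusted p = 0.22). Without wild-type normoxia replicate 1 the median was -0.16, and without knockout normoxia replicate 1 it was -0.26. The same 2 wild-type normoxia arrays enter this comparison and that of hypoxia in wild type, so both medians share them.

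By role, the 13 antiviral effectors had a median of -0.66 in the normoxia comparison, with all 13 values below 0. The median was -0.78 within the first set and -0.19 within the second, where 9 of 13 were below 0. Within both sets, 8 of the 13 read lower. The GTPases had -0.19 (-0.25 and -0.02 within the sets), with Gbp2 the one value above 0, at 0.38. The antigen processing genes had -0.28 (-0.57 and -0.02 within the sets). In hypoxia the knockout and wild type had a median difference of -0.02 with 18 of 31 below 0, where 0.0293% of all genes were called, and 3 of the 31 genes and 5.52% of all genes had an unadjusted p under 0.05. Without knockout hypoxia replicate 2 that median was -0.18. Over both oxygen conditions the median was -0.23 (-0.10 without wild-type normoxia replicate 1), 0.256% of all genes were called, and 12 of the 31 genes and 10.2% of all genes had an unadjusted p under 0.05. Xaf1 had the smallest adjusted p there, with changes of -0.63 and -0.62 in the 2 sets (adjusted p = 0.0968). The interaction of genotype and oxygen, the knockout's response minus the wild type's, passed for none of the genes tested (0%), with a median of 0.24 over the 31 (from 0.13 without wild-type normoxia replicate 1 to 0.43 without wild-type normoxia replicate 2) and an unadjusted p under 0.05 for 2 of them and for 2.41% of all genes.

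The remaining pathway was followed in genes that are not among the 37. Of 19 tested ligands, receptors and signalling genes, 1 was called higher and 3 lower in wild-type hypoxia, and 1 higher and 1 lower in knockout hypoxia. Over all genes tested, 16.4% were called in wild-type hypoxia (7.54% higher, 8.85% lower) and 10.1% in knockout hypoxia (4.98% higher, 5.13% lower). The lists were not tested as sets. Jak1, a kinase of both interferon receptors, rose by 0.64 ± 0.079 in wild type and 0.53 ± 0.079 in the knockout (adjusted p = 0.00277 and 0.00864). Ifngr2, a chain of the receptor for interferon gamma, fell by 0.64 ± 0.080 and by 0.53 ± 0.080 (adjusted p = 0.00292 and 0.00919). Ddx58/Rigi, the RNA sensor that Trim25 activates, fell by 0.50 in wild type. Ifnar2, a chain of the type I receptor, fell by 0.38 in wild type, and Ifnar1, its other chain, fell by 0.31 ± 0.072 over both genotypes (adjusted p = 0.0141). None of the 19 was called between genotypes. In normoxia 1 of them and 6.7% of all genes had an unadjusted p under 0.05.

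Of 10 further antigen processing genes tested, 3 fell in wild-type hypoxia and 2 in knockout hypoxia. Rfx5, a DNA-binding subunit of the complex that drives MHC class II promoters, read 8.20 and 7.82 in wild-type normoxia, 6.76 and 6.54 in wild-type hypoxia, 7.99 and 7.74 in knockout normoxia and 7.18 and 6.49 in knockout hypoxia. All hypoxia arrays lay below all normoxia arrays, and Rfx5 fell by 1.36 ± 0.14 in wild type and by 1.03 ± 0.14 in the knockout (adjusted p = 0.00135 and 0.00581). Calr, a chaperone of MHC class I loading, fell by 0.55 and by 0.56, and Erap1, which trims peptides, by 0.54 in wild type. Of 23 other interferon-stimulated genes tested, 5 fell in wild-type hypoxia and none rose, and in the knockout 2 fell and 1 rose. The shares over all genes tested were 8.85% lower and 7.54% higher in wild type, and 5.13% lower and 4.98% higher in the knockout. Samhd1, which depletes deoxynucleotides, fell by 0.59 ± 0.089 in wild type and by 0.63 ± 0.089 in the knockout (adjusted p = 0.00583 and 0.00749). Irgm2, Ifi27 and Lgals3bp fell in wild type by 0.71, 0.52 and 0.65, and in the knockout Trim30a fell by 0.78 and Ifitm2 rose by 0.42. The median of the 23 was -0.27 in wild type and -0.12 in the knockout.

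The 3′ minus 5′ log2 difference of the control probe sets, a sign of RNA integrity, lay between 0.31 and 0.73 for Actb and between 0.14 and 0.52 for Gapdh. It was higher in hypoxia than in normoxia within each set and genotype for both controls. Its part in the results was not tested.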

How the data were processed

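Total RNA of 8 fibroblast samples was measured on one-colour Affymetrix arrays. The deposited values are log2 expression values per probe set, made by the authors with RMA per the submitters' processing notes, with no version given. RMA equalizes the arrays' distributions, so a change shared by all transcripts is not visible. Not given in the sources used here is whether this was done on all arrays at once. Array medians lay between 5.01 and 5.12. The number of arrays limits the precision.

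Of 45037 probe sets other than controls, 34945 had 1 gene symbol, 932 several and 9160 were not listed and stay unnamed; 34741 found their identifier in the RefSeq table of GRCm38.p6, which gave current symbols. One probe set per gene was used, and genes with a mean at or above the 25th percentile (log2 4.17) were tested.

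R 4.3.3 and limma 3.58.1 fitted a mean per group with the set as a fixed term to all 8 arrays (3 residual degrees of freedom, with 5.22 added by moderation), and eBayes was run with a mean-variance trend. A gene was called where its two-sided p, adjusted by Benjamini-Hochberg over the 13647 genes, was under 0.05. The set pairs the arrays: the second minus first set difference correlated between groups by 0.71 to 0.85 across genes in all 6 pairs. The fit was tested on simulated data with 200 changed genes.

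The interferon response genes and the lists of pathway genes and cell type markers were chosen with earlier results of these data known. Named are Egln2, Usp18, Ifi204, up to 6 called genes a contrast with the smallest adjusted p, every called gene of the 37, up to 4 called pathway genes a list and contrast, and Ptprc, Csf1r, Cd68, Adgre1 and Lyz2; the others are given as ranges. Mndal and further probe sets follow the same rule. Alternatives were no set term, the set as a random block, only the arrays compared, other filters, the mean over probe sets, quantile normalization, no trend and each array left out.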

Additional observations from a re-analysis of the deposited data

Results flagged for a closer look

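For 4 of the 31 genes the response to hypoxia had opposite signs in the 2 genotypes, with both sets of wild type lower and both sets of the knockout higher. Of all genes tested, 770 (5.64%) had opposite responses of this kind in one or the other direction. The difference itself was tested as the genotype by oxygen interaction in limma, and none passed.

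Usp18 changed by -1.39 and -1.02 in wild type and by 0.12 and 0.18 in the knockout (first and second set), a difference of 1.35 ± 0.28 on the log2 scale (unadjusted p = 0.00121, adjusted p = 1). Usp18 passed the filter on low values only through wild-type normoxia, so the size of this difference is tied to its being tested at all. Psmb8 changed by -0.41 and -0.10 in wild type and by 0.52 and 0.31 in the knockout, a difference of 0.67 ± 0.20 (unadjusted p = 0.00912, adjusted p = 1). Oas1a changed by -0.39 and -0.03 against 0.09 and 0.30, a difference of 0.41 ± 0.22 (unadjusted p = 0.102). Irf1 changed by -0.11 and -0.15 against 0.16 and 0.15, a difference of 0.28 ± 0.16 (unadjusted p = 0.112).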

How the results depend on the processing

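No value of the 37 genes changed sign while called under any alternative run. These genes had 24 calls in the comparisons of genotype or oxygen. Of these, 1 was kept with no replicate block and 14 with the set as a random replicate block. With no filter on low values 23 of 24 were kept, with the mean over probe sets 19 of 24, and with no trend in eBayes 20 of 24. Quantile normalization kept 22 of 22 and the filter at the 50th percentile 15 of 15, counting only calls of genes still above the filter. Usp18 was not tested under quantile normalization. Usp18, Ifi204, Parp14 and Gbp3 lay below the 50th percentile, so their calls were not put to that alternative. The 9 genes called in wild-type hypoxia became 0 with no replicate block, 5 with the random block and 3 with only the arrays compared, and 1 to 9 when 1 array was left out. The 3 called in knockout hypoxia became 0 with no replicate block, 1 with the random block, 0 with only the arrays compared and 1 with no trend, and 0 to 4 when 1 array was left out. The 12 called over both genotypes became 1 with no replicate block, and 9 to 19 when 1 array was left out. The counts of 0 between genotypes and for the interaction stayed 0 in every alternative run. The set called 18 to 22 genes when 1 array was left out. Leaving out 1 array kept between 13 and 22 of the 24 calls, 13 of them without wild-type normoxia replicate 1. With 2 arrays a group, a lone remaining array is assumed to vary like the other groups. The causes of the lost calls were not tested.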

Other observations

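Probe sets of one gene did not always give the same call. Eif2ak2, the kinase PKR, was represented by its brightest probe set, with a mean log2 value of 8.57, which changed by -0.03 ± 0.091 with hypoxia over both genotypes. Its second probe set, with a mean of 7.53, changed by -0.27 ± 0.078 (adjusted p over all probe sets = 0.0428, limma), and a dimmer one, with a mean of 7.14, by -0.04 ± 0.11 (adjusted p = 0.867). Among the macrophage and leukocyte markers, Cd14 rose with hypoxia over both genotypes by 0.43 ± 0.13 on the log2 scale (adjusted p = 0.0344), while Lyz2 fell by 0.36 ± 0.070 (adjusted p = 0.00671) and Msr1 fell by 0.82 ± 0.25 (adjusted p = 0.039).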
